A study of Mus musculus with 4 samples.

Results

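Peptide hormones are cut out of larger precursors by a short chain of enzymes, and the transcripts of 10 of these genes were followed in insulin-reporter-positive cells made from mouse gallbladder. The genes were picked by symbol from a table of 20377 genes, and all 10 have a row. They are the convertases Pcsk1, Pcsk2, Pcsk5, Pcsk6, Pcsk7 and Furin, the carboxypeptidases Cpe and Cpd, the amidating enzyme Pam, and Scg5, a chaperone of Pcsk2. The samples form 1 group, rGBC2, with 4 libraries. Primary gallbladder cells of 8-week-old MIP-GFP mice on a C57BL/6 background, B6.Cg-Tg(Ins1-EGFP)1Hara/J, in which an Ins1 promoter drives green fluorescent protein, were given Pdx1, Ngn3, Mafa and PAX6 together with compounds not named in the labels, over 10 days, and were then sorted for insulin-positive cells. All 4 libraries share the reporter, the factors, the compounds and the sort, and the labels do not say whether they came from separate animals or cultures. No other group was analysed here, so the values are levels in these cells and not changes caused by reprogramming.

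In endocrine cells a prohormone enters the secretory pathway, is packed into dense-core granules and is cut after pairs of basic residues by Pcsk1 and Pcsk2. The carboxypeptidase Cpe then removes the basic residues left at the new end, and where a glycine is exposed Pam converts it into a terminal amide. Furin and its relatives Pcsk5, Pcsk6 and Pcsk7 cut receptors, growth factors and adhesion proteins along the constitutive route in most tissues. In the beta cell the known order is that Pcsk1 prefers the junction of the B chain with C-peptide and Pcsk2 the junction of C-peptide with the A chain.

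The substrates of these enzymes were abundant in the same libraries, and their cut sites can be read from the coding sequence. The lines below hold the stretches around such sites in precursors transcribed in these cells, from GENCODE M21 transcripts (GRCm38) matched by RefSeq identifier, 5′ to 3′ in the reading frame. Capitals mark the adjacent codons for lysine or arginine, together with the codon for glycine before them where there is one. Ins2 and Ins1 each hold exactly 2 such pairs, and those of Ins2 are shown as the template for both convertases. Npy, Gal, Iapp, Cck and Gcg are shown because a glycine codon stands before the pair, as Pam requires, and Sst because its pair lies just before the hormone.
Ins2, codon 55: acacccatgtccCGCCGTgaagtggaggac
Ins2, codon 88: gtggcccagcagAAGCGTggcattgtagat
Npy, codon 66: cagagatatGGCAAGAGAtccagccctgag
Gal, codon 63: ggcctcacaGGCAAGAGGgagttacaactg
Iapp, codon 76: aatacatatGGCAAGAGGaatgcggcaggg
Cck, codon 105: atggattttGGCCGGCGCagtgccgaggac
Gcg, codon 129: aaaggccgaGGAAGGCGAgacttcccagaa
Sst, codon 101: gcaccccgggaaCGCAAAgctggctgcaag
The codon number is that of the first basic codon, counted from 1 at the start codon. A match of codons does not show that the site was cut in these cells.

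The libraries were not equally far apart. From the size of the smallest RPKM steps (RPKM divides the reads of a gene by its length in kilobases and by sequencing depth), the depth was estimated at 22.2 to 33.0 M reads, so that 3 reads per kilobase of transcript would be 0.0910 to 0.135 RPKM. Replicates 3 and 4 differed by a median of 0.0950 on the log2(RPKM + 1) scale over 13450 genes, against 0.283 to 0.429 in the other 5 pairs. In the median gene their squared difference was 5.44 times the median that sampling of reads alone gives, against 41.4 to 110.02 times in the other pairs. This does not show that they are separate biological samples, but they were kept as the 2 samples the labels list, and the call of every member was the same with their mean counted as 1 library. Of 8 beta-cell markers 6 lay above 1 RPKM, but Nkx6-1 and Ucn3, which mark beta cells and their maturity, lay below it. Delta- and alpha-cell markers summed to 853 to 7335 RPKM and biliary markers to 1438 to 3186 RPKM. Of 6 biliary markers 5 lay above 1 RPKM, and Sox9 passed in neither direction, at 0.610 to 1.20 RPKM. By contrast, 4 of 5 immune and 4 of 4 endothelial markers lay below 1 RPKM, with sums of at most 0.480 and 0.490 RPKM. Cd3e, an immune marker, was listed at 0 in all libraries. Of 5 mesenchymal markers none was above 1 RPKM and 3 were below, with sums of 1.39 to 4.64 RPKM. Of 5 neuronal markers 2 were above, with sums of 10.57 to 41.8 RPKM. The hepatocyte and acinar list had 3 of 6 above, with sums of 30.3 to 66.2 RPKM, and Prss1 was listed at 0 in all libraries. Those above were Alb, at 2.63 to 35.2 RPKM, Cela1, and Ttr, which is also on the list of delta- and alpha-cell markers.

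With a single group, the test asked whether a gene lay above or below 1 RPKM. Of the 10 members, 7 were above 1 RPKM, 2 were below it and for 1 neither side was significant (limma's moderated test on log2(RPKM + 1), Benjamini-Hochberg adjustment over 16919 genes). Among all genes tested 65% lay above and 26.1% below, so the count of members above 1 RPKM is near the background and is no result about them. The same shares stand behind the counts of the other gene lists, which were not tested against them. The median level of the members was 22.6 RPKM, against 6.99 RPKM for all genes tested. What set the members apart from each other was their range. It ran from Cpe, among the 6 most abundant genes of every library, to Scg5 and Pcsk1, which were each listed at 0 in replicate 2.

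**Figure D1:**
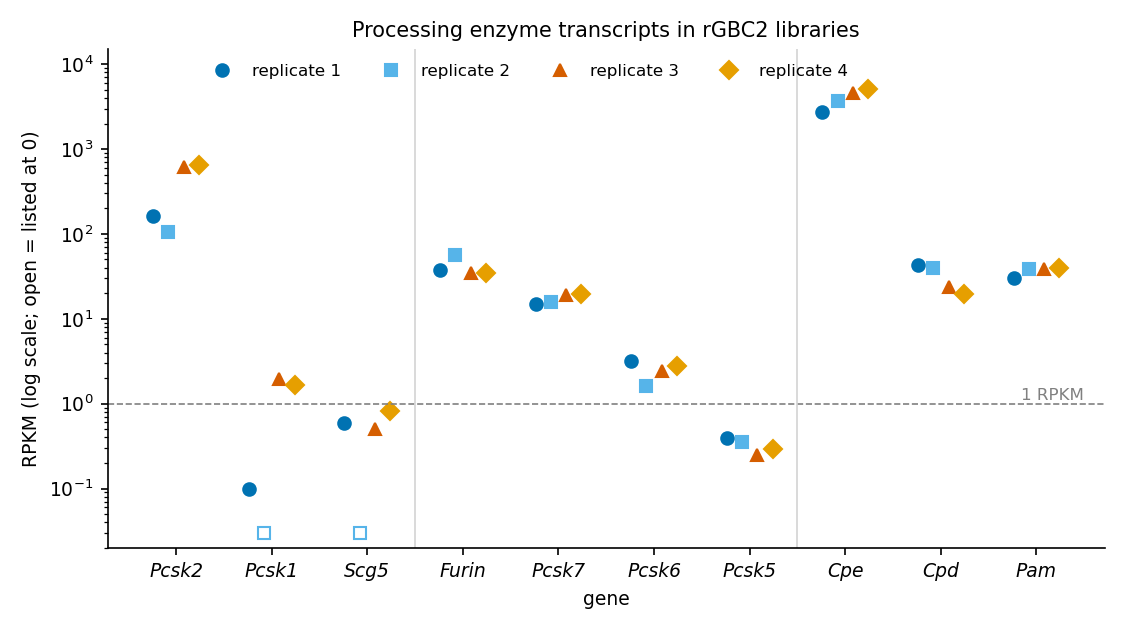
RPKM of each of the 10 genes on a log axis, with 1 symbol per rGBC2 library, open symbols for a value listed at 0 (drawn at the foot of the axis) and a dashed line at 1 RPKM. Vertical lines divide the granule convertases and their chaperone from the constitutive convertases and from the trimming enzymes. Pcsk2 spans 104 to 640.2 RPKM while Pcsk1 and Scg5 stay at or below 1.95 RPKM.

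Pcsk2, the granule convertase that acts in alpha, delta and beta cells of the islet, carried most of the convertase transcripts. Its row lies on chromosome 2 from 143371868 to 143642018, plus strand, in mm9, the build used by the authors. Pcsk2 was at 161, 104, 623 and 640.2 RPKM in replicates 1 to 4, a mean of 382 ± 289 RPKM (SD, n = 4), and lay above 1 RPKM (limma, adjusted p = 3.2e-05). Replicates 3 and 4 were high and replicates 1 and 2 low, with a 6.14-fold range. With replicates 3 and 4 counted as 1, the mean was 299 RPKM. On the log2(RPKM + 1) scale its SD between libraries was 1.34, larger than that of 99.1% of the 7492 genes with a mean of at least 10 RPKM, whose median SD was 0.30.

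Pcsk1, the other granule convertase, which acts early on proinsulin and other prohormones, was low in all 4 libraries but not equally so. The row of Pcsk1 lies on chromosome 13 from 75227434 to 75269946, plus strand. Pcsk1 was at 0.1, 0, 1.95 and 1.67 RPKM in replicates 1 to 4, neither side being significant (limma, adjusted p = 0.519). Replicates 3 and 4 lay above 1 RPKM, replicate 1 well below it, and replicate 2 was listed at 0. By the estimated depths the values correspond to about 12, 0, 242 and 277 reads, and 3 reads would be 0.0268 RPKM in replicate 2, well under the 1 RPKM of the test.

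Within each library Pcsk2 exceeded Pcsk1 in 4 of 4 cases, by 6.72 to 7.91 on the log2(RPKM + 1) scale. The mean difference was 7.39 ± 0.54 (SD, n = 4), a 168-fold ratio of RPKM + 1. With a pseudocount of 0.1 in place of 1 the ratio was 552-fold, so its size is set by how the low values of Pcsk1 are treated. The exact two-sided sign-flip permutation test gave p = 0.13, which is the smallest value 4 libraries allow, and 0.13 after adjustment over the 6 differences tested here. The same p holds for each of the 6 differences, so none could pass 0.05, and the direction and spread carry the comparison.

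Scg5, which binds the Pcsk2 precursor and is needed in mice for it to become active, stood far below it. Its row lies on chromosome 2 from 113616469 to 113669248, minus strand. Scg5 was at 0.590, 0, 0.500 and 0.830 RPKM in replicates 1 to 4. It lay below 1 RPKM (limma, adjusted p = 0.023). All 4 values lay below 1 RPKM, those of replicates 1, 3 and 4 rest on about 17, 15 and 33 reads, and 3 reads would be 0.112 RPKM in replicate 2. The call does not hold without replicate 1 (limma, adjusted p = 0.0518), with a pseudocount of 0.1 (0.0542) or with all genes of the table included (0.0541).

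Scg5 was below Pcsk2 in 4 of 4 libraries, with log2(RPKM + 1) differing by -7.64 ± 1.09 in the mean, 199-fold as a ratio of RPKM + 1 (exact sign-flip permutation p = 0.13, n = 4). Here too the size rests on the pseudocount, being 646-fold with 0.1. The difference was wider in replicates 3 and 4, at -8.70 and -8.45, than in replicates 1 and 2, at -6.67 and -6.72, as Pcsk2 was higher in replicates 3 and 4. A zero in this table need not mean an absent transcript, since Gapdh, a housekeeping gene, was also at 0 in replicate 2 and at most 0.2 RPKM elsewhere. Of the stretches of 50 bases in the Gapdh transcript 82.5% also occur in transcripts of other genes, whereas the share was 0% for Scg5 and 0% for Pcsk1, 10.7% for Pcsk7 and at most 5.2% for the other members. How reads that match several genes were counted is not given, and the part of shared sequence in any of these zeros was not tested.

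The convertases of the constitutive route were transcribed at lower levels than Pcsk2 in every library. Furin, which cuts many precursors in the trans-Golgi network and at the cell surface, was at 37.4, 57.1, 34.4 and 34.5 RPKM in replicates 1 to 4 (40.9 ± 10.9, SD, n = 4), on chromosome 7 from 87534079 to 87550317, minus strand. Replicate 2 stood above the other 3 libraries, which lay within 3 RPKM of each other, and the SD of Furin on the log2(RPKM + 1) scale exceeded those of 59.6% of genes with a mean of at least 10 RPKM. Pcsk7, a widely expressed membrane-bound relative, was at 15.1, 15.8, 18.98 and 19.4 RPKM (17.3 ± 2.17), on chromosome 9 from 45714651 to 45737805, plus strand. The SD of Pcsk7 in the same unit exceeded those of 19.6% of these genes.

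The row of Pcsk7 overlaps those of Rnf214 and Tagln on the other strand. The strand setting is not given in the sources used here and the TruSeq v2 kit does not mark strand, so reads from shared bases cannot be assigned. Rnf214 averaged 14.8 RPKM and Tagln 2.20 RPKM in these libraries. None of the other 9 members shares bases with another row of the table.

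Pcsk6, a secreted convertase that acts on TGF-beta family precursors, was at 3.15, 1.61, 2.41 and 2.78 RPKM in replicates 1 to 4 (2.49 ± 0.658, SD, n = 4), on chromosome 7 from 73007021 to 73195272, plus strand. It lay above 1 RPKM (limma, adjusted p = 0.00554), with its lowest value in replicate 2. Pcsk5, a related secreted convertase, was at 0.390, 0.350, 0.250 and 0.290 RPKM (0.320 ± 0.0622), on chromosome 19 from 17632648 to 17912122, minus strand. It lay below 1 RPKM in every library (limma, adjusted p = 2.28e-05), on about 35 to 55 reads.

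Furin thus stood above Pcsk7, Pcsk7 above Pcsk6 and Pcsk6 above Pcsk5 in every library, and none of these neighbours overlapped over the 4 libraries. Pcsk7 was below Furin with log2(RPKM + 1) differing by -1.17 ± 0.46 in the mean, 2.25-fold as a ratio of RPKM + 1, and in 4 of 4 libraries (exact sign-flip permutation p = 0.13). Pcsk2 exceeded Furin by 2.81 ± 1.63 in the same unit, again in 4 of 4 libraries (exact sign-flip permutation p = 0.13), but the size depended on the library. As ratios of RPKM, Pcsk2 to Furin was 4.31, 1.83, 18.1 and 18.6 in replicates 1 to 4.

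Taken as shares of the summed RPKM of the 6 convertases, Pcsk2 made up 74.2%, 58.2%, 91.5% and 91.6% in replicates 1 to 4. Furin made up 17.2%, 31.9%, 5.05% and 4.94%, and Pcsk7 2.77% to 8.82%. Pcsk1, Pcsk5 and Pcsk6 reached at most 0.286%, 0.195% and 1.45%. The sum of the 5 convertases other than Pcsk2 was 56.1, 74.9, 58.0 and 58.6 RPKM, so the library-to-library range of the total, 179 to 699 RPKM, was mostly that of Pcsk2.

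**Figure D2:**
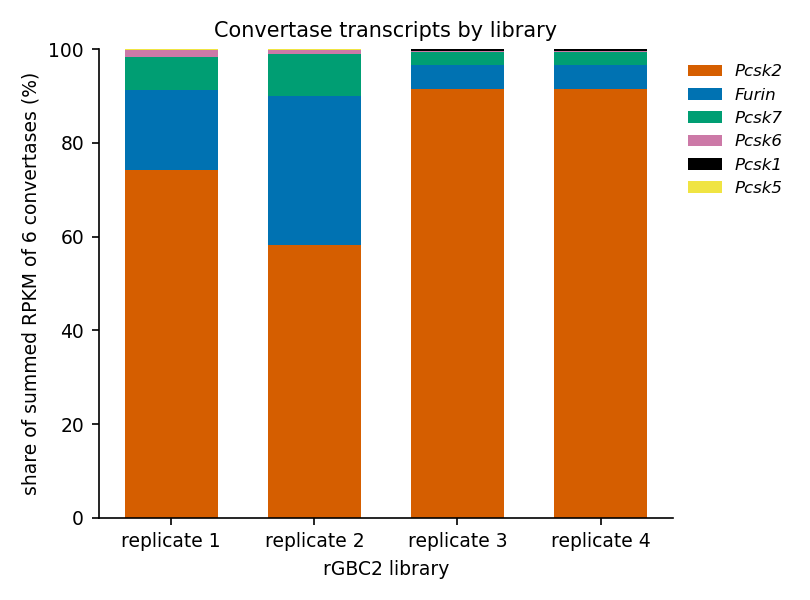
Share of each convertase in the summed RPKM of the 6 convertases, in percent, with 1 bar per rGBC2 library. Pcsk2 is the largest part of every bar, from 58.2% in replicate 2 to 91.6% in replicate 4, and Furin is next.

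Cpe, the carboxypeptidase that trims basic residues from peptide intermediates, was by far the most abundant of the 10 genes. Its row lies on chromosome 8 from 67071348 to 67171837, minus strand. Cpe was at 2749.8, 3670.4, 4576 and 5139.7 RPKM in replicates 1 to 4 (4034 ± 1048, SD, n = 4), which placed it 6th, 6th, 4th and 5th among all genes of these libraries. Replicate 1 was lowest and replicate 4 highest, a 1.87-fold range. With replicates 3 and 4 counted as 1, the mean was 3759 RPKM.

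Cpd, a related carboxypeptidase of the trans-Golgi network that most cells express, was at 42.7, 39.2, 23.6 and 19.5 RPKM in replicates 1 to 4 (31.2 ± 11.4, SD, n = 4), on chromosome 11 from 76590709 to 76660510, minus strand. It ran against Cpe and Pcsk2 in that replicates 1 and 2 were high and replicates 3 and 4 low. Cpe exceeded Cpd by 7.00 ± 0.92 in log2(RPKM + 1), the same way in 4 of 4 libraries, a 128-fold ratio of RPKM + 1 (exact sign-flip permutation p = 0.13, n = 4). Cpe made up 98.5% to 99.6% of the summed RPKM of both.

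Pam, the enzyme that amidates glycine-extended peptides, was at 29.9, 38.9, 38.2 and 39.9 RPKM in replicates 1 to 4 (36.7 ± 4.62, SD, n = 4), on chromosome 1 from 99717670 to 99992209, minus strand. Replicate 1 was lower than the other 3 libraries, which lay within 2 RPKM of each other. Its SD on the log2(RPKM + 1) scale exceeded those of only 23.5% of genes with a mean of at least 10 RPKM. Pam was below Cpe in 4 of 4 libraries, with log2(RPKM + 1) differing by -6.71 ± 0.25 in the mean, 105-fold as a ratio of RPKM + 1 (exact sign-flip permutation p = 0.13). That was the least variable of the 6 differences, with library values from -6.97 to -6.48.

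By mean level the order of the 10 genes was Cpe, Pcsk2, Furin, Pam, Cpd, Pcsk7, Pcsk6, Pcsk1, Scg5 and Pcsk5. Furin, Pam and Cpd overlapped over the libraries and changed places among them, with Cpd the highest of the 3 in replicate 1, Furin in replicate 2 and Pam in replicates 3 and 4. Pcsk1, Scg5 and Pcsk5 overlapped as well, and Pcsk1 in replicates 3 and 4 reached the range of Pcsk6.

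**Figure D3:**
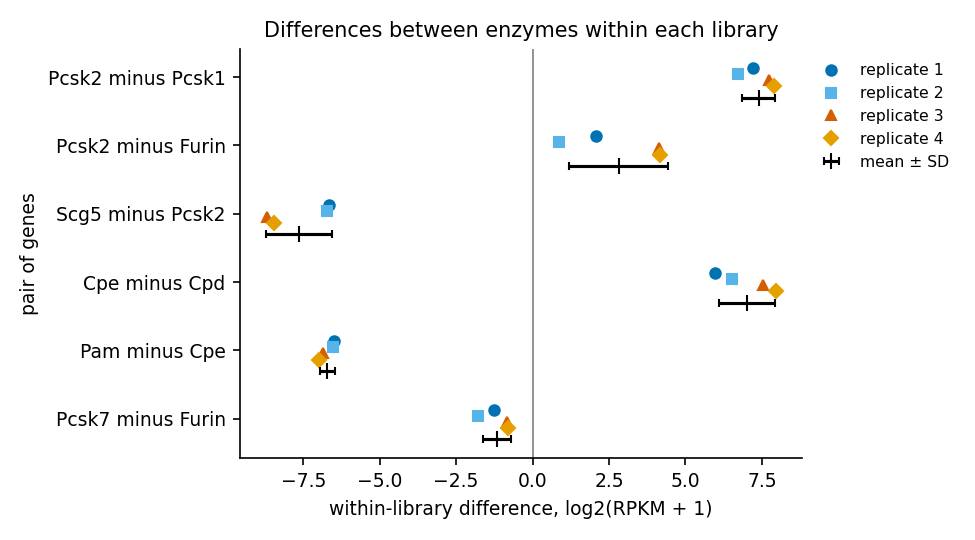
Differences between pairs of genes within each library on the log2(RPKM + 1) scale, with 1 symbol per rGBC2 library and a bar below them for the mean ± SD over the 4 libraries. All 4 libraries lie on the same side of 0 for each of the 6 pairs, with the narrowest spread for Pam minus Cpe and the widest for Pcsk2 minus Furin.

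The precursors on which the granule enzymes act had a larger summed RPKM than Cpe or Pcsk2 in every library, but of single precursors only Npy and Iapp had a higher mean than Cpe. By library, Npy exceeded Cpe throughout, Iapp in replicates 2 and 4, Sst in replicates 3 and 4, Gal in replicate 1 and Ins2 in replicate 2. Of 21 peptide hormone precursors 12 lay above 1 RPKM, 5 (Ppy, Pyy, Nts, Pomc and Calca) below, 2 (Gast and Tac1) in neither direction, and 2 (Grp and Vip) were listed at 0. Among all genes tested 65% lay above and 26.1% below, and the counts of precursors were not tested against these shares. Their summed RPKM was 25432, 35061, 58825 and 63816 in replicates 1 to 4. Npy was the largest part in every library, and by mean level Iapp and Gal came next, although Sst was second in replicates 3 and 4. Per RPKM of Cpe there were 9.25, 9.55, 12.9 and 12.4 RPKM of precursors, a 1.39-fold range. Without Npy these ratios were 2.92, 3.62, 4.92 and 4.90, a 1.68-fold range. Per RPKM of Pcsk2 there were 158, 336, 94.5 and 99.7 RPKM, a 3.56-fold range with replicate 2 highest, and without Npy 49.9, 127, 36.1 and 39.3 RPKM, a 3.52-fold range.

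Against single precursors, how far each enzyme varied depended on the precursor. The ratio of Cpe to Iapp, the amyloid peptide co-secreted with insulin, was 1.32, 0.753, 1.01 and 0.988 in replicates 1 to 4, and that of Cpe to Ins2 was 2.52, 0.991, 1.19 and 1.21. The ratio of Pcsk2 to Ins2 was 0.148, 0.0281, 0.162 and 0.151. Replicate 2 thus had about as much Ins2 as replicates 3 and 4 beside the lowest Pcsk2. The ratio of Pcsk2 to Gcg, the glucagon precursor that Pcsk2 cuts in alpha cells, was lowest there too, at 1.69, 0.111, 1.02 and 0.782 in replicates 1 to 4.

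Pcsk2 was high where somatostatin was, but this was not particular to Sst among the precursors. In replicates 1 to 4 Ghrl was at 29.8, 29.6, 349 and 399.8 RPKM. Gip was at 100.9, 10.6, 271 and 320 RPKM and Sct at 8.26, 3.45, 323 and 343 RPKM. Not every precursor ran this way, as Gcg had its highest value in replicate 2. Sst was at 664, 460.2, 5573 and 6409 RPKM in replicates 1 to 4, while the ratio of Pcsk2 to Sst came to 0.243, 0.227, 0.112 and 0.0999, a 2.43-fold range. The ratio of Cpe to Sst ranged more widely, 9.94-fold, at 4.14, 7.98, 0.821 and 0.802. The delta- and alpha-cell markers summed to 853, 1527, 6290 and 7335 RPKM in the same libraries, and this sum is mostly Sst except in replicate 2, where Gcg was highest at 942 RPKM. The delta-cell regulator Hhex did not follow Sst, at 75.7, 109.6, 84.8 and 87.3 RPKM. Ttr had the same order of libraries as Sst but a 1.34-fold range, at 17.5, 15.2, 19.0 and 20.3 RPKM. Irx1 and Irx2, regulators known from alpha cells, lay below 1 RPKM. They too were lowest in replicate 2 and highest in replicates 3 and 4, with Irx1 at 0 to 0.26 RPKM and Irx2 at 0.11 to 0.6 RPKM. Each library pools many cells, so more cells of a type and more RNA per cell cannot be told apart, and the part of these cell markers in the level of Pcsk2 was not tested.

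All 5 granins on the list, proteins stored beside the hormones in dense-core granules, lay above 1 RPKM, against 65% of all genes tested. That list leaves out Scg5, which was below 1 RPKM, and Pcsk1n, which passed in neither direction. The listed granins too differed between libraries. Their sum was 87.2 and 80.9 RPKM in replicates 1 and 2 and 724 and 720.4 RPKM in replicates 3 and 4. Chga, the granin chromogranin A, was at 33.1, 23.7, 471 and 470.2 RPKM, a wider range than that of Pcsk2. Scg2 was at 27.6, 32.97, 183 and 182 RPKM and Scg3, a granin that binds to the granule membrane, at 6.91, 16.9, 40.98 and 37.3 RPKM. Chgb, at 14.3, 3.94, 20.1 and 22.9 RPKM, and Vgf, at 5.32, 3.4, 8.41 and 8.09 RPKM, rose less from replicate 1 to replicates 3 and 4. The ratio of Pcsk2 to Scg2 was 3.16 to 3.52 in replicates 2 to 4 and 5.85 in replicate 1.

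**Figure D4:**
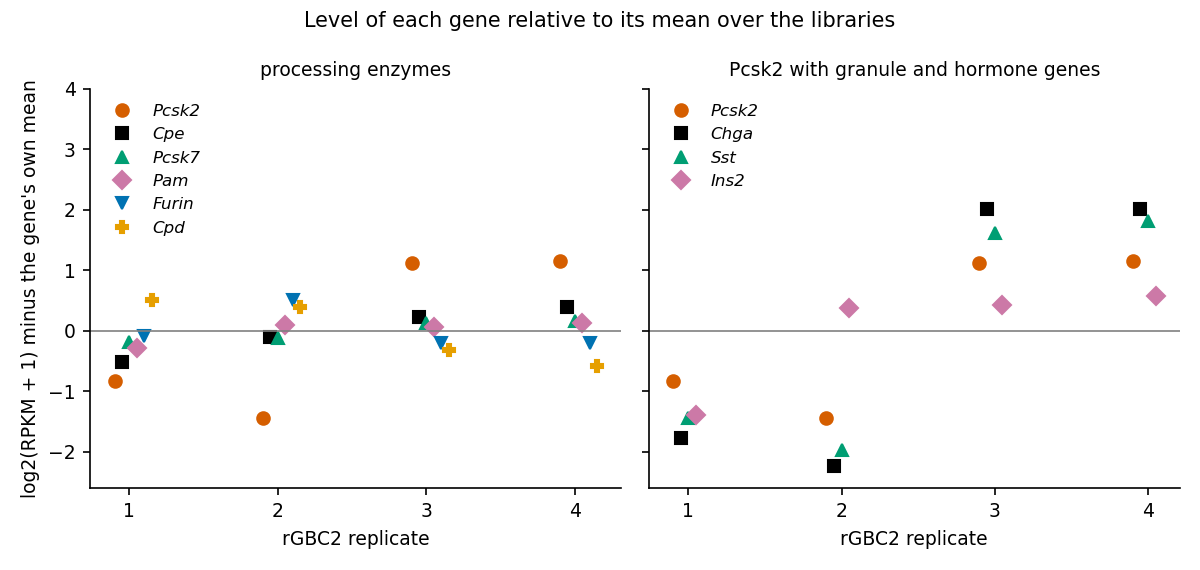
Level of each gene in each rGBC2 library as log2(RPKM + 1) minus the gene's own mean over the 4 libraries, for 6 processing enzymes (left) and for Pcsk2 beside Chga, Sst and Ins2 (right). Pcsk2 lies at -0.83 and -1.45 in replicates 1 and 2 and at 1.12 and 1.16 in replicates 3 and 4, as do Chga and Sst with wider spread, while Cpd lies above its mean in replicates 1 and 2 and below it in replicates 3 and 4.

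The genes whose pattern over the 4 libraries was closest to that of Pcsk2 were Fez1, Kcnk9, Barhl1, Gfra3 and Slc43a2. Their root mean square distance from Pcsk2, on log2(RPKM + 1) centred on each gene's own mean, was 0.06 for Fez1, 0.08 for Kcnk9, 0.11 for Barhl1, 0.15 for Gfra3 and 0.18 for Slc43a2. Gfra3, a co-receptor of the GDNF family, was the most abundant of them at 79.7, 41.6, 246 and 247 RPKM. Among the genes with a mean of at least 10 RPKM, 7 came within 0.2 of Pcsk2. The same distance took in 1042 genes for Cpe, with Mosc2, Ufc1, Btg1, Mrps23 and N6amt2 nearest. The distance is not scaled to a gene's own spread, so the smaller SD of Cpe by itself admits more genes. With 4 libraries, of which 2 are close, such likeness is a description.

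Of 14 other processing genes 9 lay above 1 RPKM, 3 below (Cpz, Cpxm2 and Aebp1, relatives of the carboxypeptidases) and 2 in neither direction, with a median of 5.33 RPKM. A share of 9 in 14 is near the 65% of all genes tested and is no result about these genes. Pcsk1n, which encodes the Pcsk1 inhibitor proSAAS, was at 2.59, 0.390, 7.42 and 6.73 RPKM in replicates 1 to 4, neither side being significant (limma, adjusted p = 0.0719). Like Pcsk1 it was highest in replicates 3 and 4 and lowest in replicate 2. Cpxm1, another relative of Cpe, was the second gene in neither direction, at 0.360 to 1.25 RPKM.

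The highest of these genes was Ctsl, a cathepsin known to cut several prohormones in neuroendocrine cells besides its work in lysosomes, at 739, 2829, 1379 and 1569 RPKM in replicates 1 to 4. In all 4 libraries it exceeded Pcsk2, most of all in replicate 2 where Pcsk2 was lowest. Mbtps1, the Golgi convertase that activates sterol and stress regulators, stood at 58.4 to 79.5 RPKM, above Furin in every library. Rnpep, an aminopeptidase that removes basic residues from the front of peptides, stood at 30.7 to 54.8 RPKM.

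All 4 genes listed for the supply of cofactors to Pam lay above 1 RPKM, against 65% of all genes tested, with a median of 56.8 RPKM. Atox1, a copper chaperone, was at 208 to 424 RPKM, and Cyb561, which returns electrons to ascorbate inside granules, at 65.1 to 84.6 RPKM. Slc31a1, the copper importer, was at 39.1 to 53.95 RPKM and Atp7a, the pump that loads copper into the secretory pathway, at 13.8 to 24.1 RPKM. On the substrate side, 7 of 15 precursors of amidated peptides lay above 1 RPKM, 4 below and 2 in neither direction, and 2 were listed at 0. Among all genes tested 65% lay above, but that share leaves out genes listed at 0 throughout, so the bases differ. The sums over these precursors were 23440 to 51924 RPKM. Per RPKM of Pam these sums came to 784, 788, 1266 and 1300 in replicates 1 to 4, a 1.66-fold range.

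Of 8 peptidases that break down peptides outside or inside cells, 5 lay above 1 RPKM, which is near the 65% of all genes tested. The highest was Ece1, the endothelin-converting enzyme, at 213 to 517 RPKM. Nrd1, which cuts at dibasic sites, stood at 35.6 to 66.2 RPKM and Ide, the insulin-degrading enzyme, at 37.3, 29.3, 17.2 and 14.7 RPKM in replicates 1 to 4. Both were lower in replicates 3 and 4, as Cpd was. The surface peptidases Mme and Anpep lay below 1 RPKM, at no more than 0.650 RPKM in any library, and Dpp4, which inactivates incretins, was at 0.880 to 2.79 RPKM and passed in neither direction.

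All 9 substrates of the constitutive convertases that were listed lay above 1 RPKM, against 65% of all genes tested, with a median of 17.5 RPKM. The count was not tested against that share. Mmp14, a membrane metalloprotease that Furin activates, was highest at 43.5 to 64.9 RPKM, followed by Adam10 at 21.2 to 60.9 RPKM and Notch1 at 10.5 to 31.4 RPKM. Mmp14 and Adam10 had their highest value in replicate 2, where Furin was highest, and Notch1 had its lowest there. The insulin receptor Insr, whose precursor Furin cuts, was at 3.33 to 6.18 RPKM, and the related Igf1r at 7.44 to 18.6 RPKM.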

How the data were processed

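RNA was sequenced from 4 rGBC2 libraries made with a TruSeq v2 kit. The authors deposited RPKM values rounded to 2 decimals, 1 per gene symbol and RefSeq transcript. The tools named per the submitters' processing notes are CASAVA 1.8.2 and Bowtie, with mm9 as the build. The read counting is not given in the sources used here, nor is the strand setting. Another 6 per-sample columns of the table match no sample of the series and were not used.

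The members and gene lists were chosen with earlier results of these data known. Levels were tested against 1 RPKM on log2(RPKM + 1) with limma 3.58.1 in R 4.3.3 (moderated variances with a mean-variance trend, two-sided, Benjamini-Hochberg over 16919 genes, those at 0 throughout being left out, threshold 0.05). The procedure was also run on simulated data. The simulated libraries varied independently, so that run does not cover the closeness of replicates 3 and 4. P-values measure only the spread between these libraries, which may be technical. 6 differences between genes were tested within libraries by two-sided exact permutation of signs. Fold values on log2(RPKM + 1) understate those of low genes. Genes at 0 in any library are given per library, without mean and SD.

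RPKM holds no read totals. Depth was fitted, within a set range, to low nonzero values among 993 olfactory receptor rows spanning under 1100 bases. Such values numbered 32, 26, 14 and 17 in replicates 1 to 4. Reads per gene use GENCODE M21 transcript lengths, matched by RefSeq identifier for 98.1% of genes. They are approximate, since summed over genes they exceed the fitted depth 1.25 to 1.27 times. The floors of 3 reads cover counting error only. All 10 members were named. From the other lists the text names the 3 highest by mean, those below 1 RPKM or in neither direction where they are 3 or fewer, and genes that act with or are cut by a member. Others, cell type markers and precursors among them, were named after their values were seen. Alternatives were a pseudocount of 0.1, other filters, median-ratio scaling, no variance trend and each library left out. Averaging replicates 3 and 4 was added after seeing the data.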

Additional observations from a re-analysis of the deposited data

Results flagged for a closer look

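In 4 genes with printed values, 1 library lay far from the other 3, judged by the gap to its nearest neighbour as a share of the gene's whole range (Dixon's criterion at 95%), which chance alone meets in about 1 of 20 groups. All members and all genes of the lists were screened, so some are expected to meet it by chance, and genes not flagged here met it too. The criterion also takes the libraries as independent, which the labels do not show. For Furin the share was 0.870, with replicate 2 at 57.1 RPKM and the others at 34.4 to 37.4 RPKM. For Mmp14 it was 0.857, with replicate 2 at 64.9 RPKM and the others at 43.5 to 46.6 RPKM. For Slc31a1 it was 0.847, with replicate 2 at 53.95 RPKM and the others at 39.1 to 41.3 RPKM. For Ins2 it was 0.830, with replicate 1 at 1090.5 RPKM and the others at 3704 to 4240.2 RPKM. Without replicate 2, Pcsk7 was below Furin by -0.96 on the log2(RPKM + 1) scale, and Pcsk2 exceeded Furin by 3.46.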

How the results depend on the processing

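The 7 members above 1 RPKM numbered 7 under every alternative run, and the 6 differences kept their direction. With a pseudocount of 0.1, Pcsk2 minus Pcsk1 was 9.11 and Scg5 minus Pcsk2 -9.34. The count of members below 1 RPKM was 2, and 1 with a pseudocount of 0.1 or with no filter, and 1 to 2 with each library left out, because Scg5 no longer passed. The count of all genes below 1 RPKM was 4423, but 1889 with a mean of at least 0.1 RPKM required and 7777 with no filter, since these settings remove or add genes near 0. Leaving out each library gave 4120 to 4204 genes below and 10788 to 10867 above. The distance of Pcsk1 from 1 RPKM in log2(RPKM + 1) was -0.22 with all 4 libraries and ran from -0.482 without replicate 3 to 0.038 without replicate 2, and was significant in none of these. Median-ratio scaling moved libraries by at most 0.09 (log2) and changed no call of a member. No paired analysis was possible because there is 1 group. Low genes are limited by rounding to 2 decimals and by depth.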
